A study of Callithrix jacchus with 4 samples.

Results

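Single-nuclei RNA sequencing of the primary visual cortex (V1) of adult marmosets held 38147 nuclei, of which the authors annotated 14838 as excitatory neurons. The upper-layer *CUX2* excitatory neurons described here were selected on their counts of unique molecular identifiers (UMIs, each standing for 1 captured RNA molecule). A nucleus was chosen by 4 conditions: the excitatory annotation, 2000 or more UMIs, at least 1 *CUX2* UMI and 0 *FOXP2* UMIs. These conditions left 6814 nuclei of the 12880 excitatory nuclei that had 2000 or more UMIs. A further 1674 nuclei showed *FOXP2* and no *CUX2* and are called *FOXP2* nuclei, 1963 showed both genes and 2429 showed neither. Because *CUX2* and *FOXP2* chose the nuclei, their own levels were not tested. Just below the depth limit, 179 of 408 excitatory nuclei with at least 1800 but fewer than 2000 UMIs met the marker conditions, and just above it 170 of 387 with at least 2000 but fewer than 2200 UMIs did (43.9% on each side).

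The injured cohort held 3 adult marmosets, F1619, F1565 and F1711, that received endothelin-1 (ET-1), a peptide that constricts blood vessels and so causes an ischemic stroke, in V1 of the left hemisphere. Their tissue, which took in the stroke core and penumbra, was collected 7 days later, and each animal gave 1 library. The control cohort held 3 uninjured adult marmosets whose nuclei were pooled as 1 library. Variation among control animals is therefore unknown, and each injury test takes it to equal that among the injured animals. Each cohort had its own protocol for isolating nuclei, with sorting of stained nuclei for the control cohort, and its own sequencing facility. Removal of doublets also differed, and for the control cohort the paper describes a limit on genes per nucleus. These steps and the injury cannot be told apart. *CUX2* nuclei numbered 1920 in the control library and 893, 2515 and 1486 in F1619, F1565 and F1711. Their median depth was 3481 UMIs in the control library and 7012, 5362 and 6479 UMIs in the same 3 animals. The deepest of them held 15852 UMIs in the control library and 11917, 11748 and 11389 UMIs in these animals. UMIs were summed over the *CUX2* nuclei of each library, to 7692460 in control and to between 6109781 and 14118350 in the injured animals, and levels are given below as CPM of these sums, the UMIs of a gene scaled to a common library total. In each comparison the totals were first adjusted by TMM (trimmed mean of M values) factors computed for that comparison, so the CPM of a gene differs slightly between comparisons. Summed marker lists and levels pooled over a cell type use the totals alone. The sums hold 57 nuclei whose barcode also occurs in another library, and 4 barcodes belonged to *CUX2* nuclei of more than 1 library.

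*CUX2* encodes a homeodomain transcription factor that is kept on in pyramidal neurons of the upper cortical layers, which send their axons mainly to other cortical areas. *FOXP2* encodes a forkhead transcription factor typical of deep-layer neurons, many of which project to the thalamus. In primate V1 the upper layers grade into a thick layer 4, the target of visual input from the thalamus, where neurons express the nuclear receptor gene *RORB*. After a stroke, neurons that survive near the lesion are exposed to inflammatory signals, among them interferons, which switch on antiviral genes and the antigen-presenting machinery in most cell types.

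The share of *CUX2* nuclei among excitatory nuclei was 51.6% in the control library (95% Clopper-Pearson interval 50.0 to 53.2%). It was 48.7% (46.4 to 51.0%) in F1619, 57.0% (55.5 to 58.5%) in F1565 and 51.0% (49.2 to 52.8%) in F1711. The control value lay inside the range of the injured animals, whose mean was 52.2% ± 4.29 (SD, n = 3). With every nucleus thinned to 2000 UMIs and the conditions applied again, the share was 45.7% in control and 46.4%, 48.7% and 50.3% in F1619, F1565 and F1711. When 2 or more *CUX2* UMIs were asked for, it was 37.2% in control and 46.8% ± 2.35 (SD, n = 3) in injured animals, and without the *FOXP2* condition 62.7% and 70.6% ± 1.21. These intervals cover counting error only, and with 1 control library no test between cohorts was made.

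**Figure D1:**
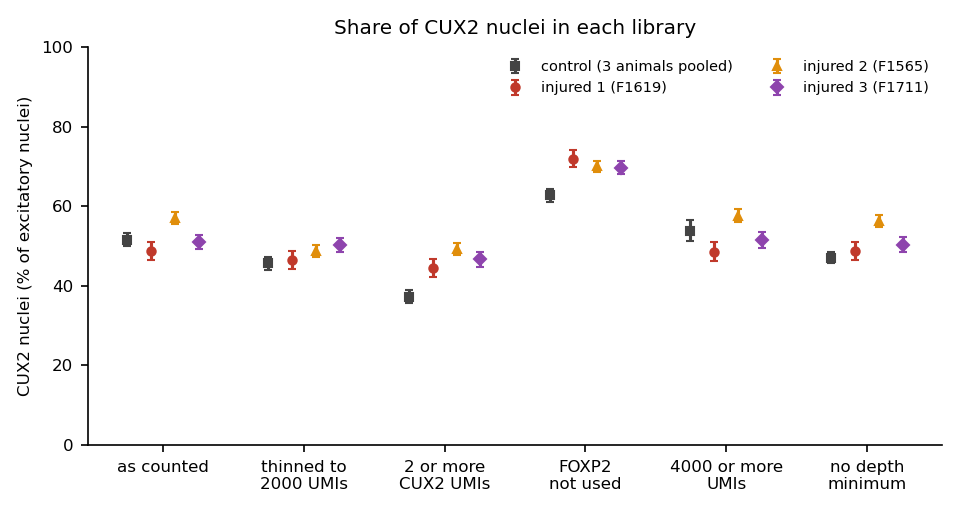
Share of *CUX2* nuclei among excitatory nuclei, in percent, in the control library (3 animals pooled) and in each injured animal under 6 ways of counting; points are single libraries and bars are 95% Clopper-Pearson intervals. The control library sits inside the injured range as counted (51.6% against 48.7 to 57.0%) and with a minimum of 4000 UMIs, and below all 3 animals in the other 4 ways, among them with no depth minimum (47.1% against 48.7 to 56.3%).

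*CUX2* UMIs also occurred in nuclei of other types. Among control nuclei with 2000 or more UMIs, a *CUX2* UMI was found in 41.7% of 84 oligodendrocytes (median 2832 UMIs) and 27.7% of 101 astrocytes (median 2532 UMIs), against 62.7% of excitatory nuclei (median 3381 UMIs). In the injured cohort the shares were 5.0% of 1560 oligodendrocytes (median 2826.5 UMIs), 9.17% of 1833 astrocytes (median 4214 UMIs), 8.04% of microglia (median 3972 UMIs), 15.3% of endothelial nuclei (median 3507 UMIs) and 70.3% of excitatory nuclei (median 6035 UMIs). Inhibitory neurons held one in 25.7% of 627 control nuclei (median 3516 UMIs) and 27.6% of 1984 injured nuclei (median 5720 UMIs), and control microglia in 42.9% of 7. The share was higher in control for oligodendrocytes and astrocytes, whereas 0 of 11 control oligodendrocyte precursor cells held one against 10.02% of 998 injured ones, a difference that 11 nuclei are too few to show. Exactly 1 *CUX2* UMI was found in 27.8% of control *CUX2* nuclei and in 10.3% ± 2.93 (SD, n = 3) of injured ones. The layer markers that the rule did not use gave a check of the label.

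Within libraries, 4 of 8 upper-layer markers were called higher and 11 of 14 deep-layer markers lower in *CUX2* than in *FOXP2* nuclei. In a comparison of *CUX2* with *FOXP2* nuclei of the same library (edgeR quasi-likelihood test on summed UMIs with library as a block, Benjamini-Hochberg adjusted over all genes), 1282 of 12487 genes passed the limits, which is 10.3% of those tested. Passing, or being called, here and below means an adjusted p under 0.01, an absolute natural-log fold above 0.25 and detection in 10% or more of the nuclei in either group. *CUX2* nuclei were higher for 687 genes (5.5%) and lower for 595 (4.76%), and the median log2 difference over all genes was 0.01.

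Of the 8 upper-layer markers tested, 4 were called higher in *CUX2* nuclei and 0 lower, with a median log2 difference of 0.995 over the 8. *CUX1*, the close relative of *CUX2*, stood at 2656 CPM in *CUX2* and 666 CPM in *FOXP2* nuclei of the control library, and its log2 difference over the 4 libraries was 2.52 ± 0.0970 (SE). The injured animals gave between 2264 and 2484 CPM in *CUX2* nuclei against 344 to 393 CPM in *FOXP2* nuclei, so the sum was higher in *CUX2* nuclei in all 4 libraries. Single nuclei of the classes did overlap. A *CUX1* UMI was found in 71.4% of control and 78.5% of injured *FOXP2* nuclei, against 96.5% and 98.0% of *CUX2* nuclei. *LAMP5*, a membrane protein of superficial neurons, differed by 1.98, *RASGRF2*, a Ras exchange factor, by 1.79, and *CALB1*, the calcium buffer calbindin, by 1.61 on the log2 scale. *HPCAL1*, *CBLN2*, *SERPINE2* and *FREM3* were not called.

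The deep-layer markers went the other way, with 11 of 14 tested called lower in *CUX2* nuclei, 0 called higher and a median log2 difference of -1.70. *FEZF2*, the selector of subcortical projection neurons, stood at 0.248, 1.13, 1.32 and 1.81 CPM in *CUX2* nuclei of control, F1619, F1565 and F1711, against 28.0, 48.9, 48.0 and 66.9 CPM in the *FOXP2* nuclei of the same libraries. Its log2 difference was -5.35 ± 0.171 (SE). *SYT6*, a synaptotagmin of corticothalamic neurons, differed by -5.29, *BCL11B*, which encodes the corticospinal factor CTIP2, by -3.70, *ETV1* by -3.19 and *SEMA3E* by -2.44. *HTR2C*, *NR4A2* and *SULF1* were not called.

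Of the 6 layer 4 markers, *KCNH5*, *PHACTR2* and *RORB* were called higher in *CUX2* nuclei, with log2 differences between 0.44 and 0.50, smaller than those of the 4 upper-layer markers called. *UNC5D* (-0.148), *IL1RAPL2* (-0.109) and *COL22A1* (-0.235) leaned towards *FOXP2* nuclei and were not called. The median over the 6 was 0.163. A *RORB* UMI was found in 77.3% of control *CUX2* nuclei and in 81.1% ± 2.49 (SD, n = 3) of injured ones. In *FOXP2* nuclei it was found in 60.5% in control and in 76.4% ± 7.93 (SD, n = 3) in injured animals. In F1619 the share in *FOXP2* nuclei (83.7%) exceeded that in *CUX2* nuclei (81.1%). These shares were taken at unequal depths. With every nucleus thinned to the same depth, they were 66.1% in *CUX2* and 49.7% in *FOXP2* nuclei of control. In F1565 they were 71.2% and 55.0% in the same order. *FOXP2* nuclei had the higher thinned share in F1619 (67.6% and 72.0%) and in F1711 (63.3% and 65.1%). These differences were not tested.

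**Figure D2:**
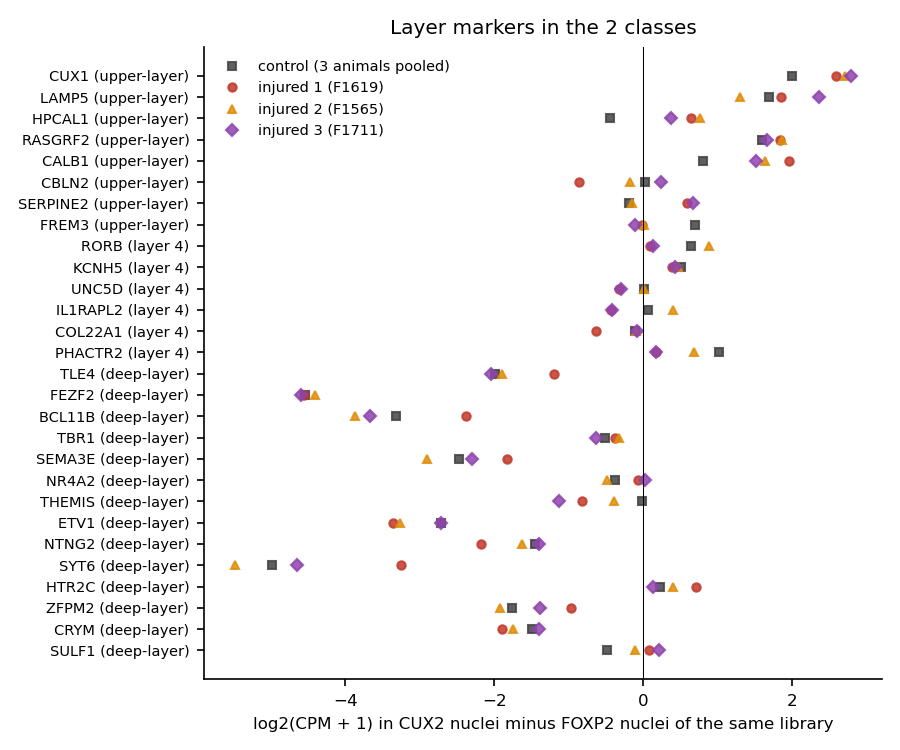
Difference in log2(CPM + 1) between *CUX2* and *FOXP2* nuclei of the same library for each layer marker tested; each point is 1 library and 0 means equal levels. *CUX1* lies right of 0 and *FEZF2*, *SYT6*, *BCL11B* and *ETV1* far left of 0 in all 4 libraries.

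Beyond the markers, the 5 largest called differences towards *CUX2* nuclei were in *FAM109A* (log2 4.003 ± 0.107, SE), *CHST9* (3.64), *CNR1* (3.33), *THSD7A* (3.31) and *KIAA2012* (3.21). *CNR1* encodes the cannabinoid receptor CB1, and *CHST9* a sulfotransferase. *CNR1* stood at 12.4 CPM in control and 24.6 to 30.1 CPM in injured *CUX2* nuclei, against 1.45 to 3.66 CPM in *FOXP2* nuclei of the 4 libraries. The 5 largest towards *FOXP2* nuclei were *FEZF2*, *SYT6*, *NPY2R* (-4.34), a neuropeptide Y receptor gene, *BCL11B* and *PDE1C* (-3.67), a calmodulin-dependent phosphodiesterase gene.

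Some gene groups that set how neurons signal differed between the classes in both directions, where 5.5% of all genes were called higher and 4.76% lower. In the calcium extrusion and store list, 7 of 17 genes were lower in *CUX2* nuclei and 0 higher, among them the plasma membrane pump *ATP2B4* (log2 -1.42) and the ryanodine receptors *RYR2* (-0.59) and *RYR3* (-0.87). Among kainate and metabotropic glutamate receptors 8 of 15 were lower and 2 higher, with the kainate subunit *GRIK3* (-3.17) among those lower. Voltage-gated potassium channels gave 8 higher and 3 lower of 26, led by *KCNH8* (2.50) and *KCNIP2* (1.78), an auxiliary subunit of A-type channels. Axon guidance genes gave 8 higher and 12 lower of 45, from the neuropilin *NRP2* (2.49) to its ligand family member *SEMA3A* (-3.01). These lists were picked with their counts known. Synaptic adhesion genes gave 10 higher and 7 lower of 36. GABA receptors gave 1 higher and 1 lower of 14, AMPA receptors 1 and 1 of 11, and postsynaptic density genes 4 and 1 of 30.

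Injured *CUX2* nuclei differed from control ones in genes of several lists. Genes of interferon response, antigen presentation, ribosomal proteins and secreted peptides, and single chaperones, receptors and channels, were among those that rose, and 4 genes of the lists examined fell. With F1619 left out, the antiviral list kept 0 calls and the GABA receptor list and the sodium and calcium channel list 1 each. In the edgeR quasi-likelihood test of 3 injured against 1 control library, 528 of 14304 genes were called, or 3.69%. They comprised 345 higher (2.41%) and 183 lower (1.28%), and the median log2 fold change over all genes was 0.01. All 345 were higher in 3 of 3 injured animals and all 183 were lower in 3 of 3. The 3 animals share 1 control library and the call favours genes on which they agree, so this is not separate support. Of the 183, 38 had 0 UMIs in every injured nucleus of any cell type, and they are left out of the named genes. The control table lists 16383 genes, each with a UMI, and the table of injured nuclei lists 32323, of which 21390 have a UMI. Whether both cohorts were counted on the same gene models was not tested, and such a difference cannot be told apart from injury in any gene's fold change. With library size as the only scaling, which lowered the median of all genes to -0.10, the split became 291 higher and 295 lower. Leaving out F1619 gave 266 calls, leaving out F1565 957 and leaving out F1711 1175. Among the genes named below, *TAP1*, *GABBR1* and *KCNMB4* lost their call in 6 of 16 alternative settings, *CALM2*, *DNAJB2*, *IFIT1* and *IFIT3* in 5, and *IFNGR2*, *NLGN2*, *RNASE1*, *SLC17A6* and *TUBA1A* in 4.

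The largest rise among genes with more than 3 UMIs in each cohort was in *B2M*, the light chain of major histocompatibility complex (MHC) class I. It stood at 5.89 CPM in the control library and at 1040.4, 981 and 627 CPM in F1619, F1565 and F1711. Every injured animal lay more than 100 times above control, and the log2 fold change was 7.22 ± 0.444 (SE, edgeR adjusted p = 0.000533). Others of the 10 largest rises ran in log2 fold change from *IFIT3* (5.63) through *CD74*, *PARP10*, *TAP1*, *RNASE1*, *PRODH* and *FTL* to *LGALS3* (3.95). *TAP1*, which moves peptides to MHC class I, stood at 1.72 CPM against 65.0, 75.8 and 24.0 CPM in F1619, F1565 and F1711. *PARP10*, an interferon-inducible ADP-ribosyltransferase gene, stood at 0.859 CPM against 36.5, 38.6 and 16.9 CPM in the same order. Both genes were lowest in F1711, which still lay above control by more than 10 times.

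**Figure D3:**
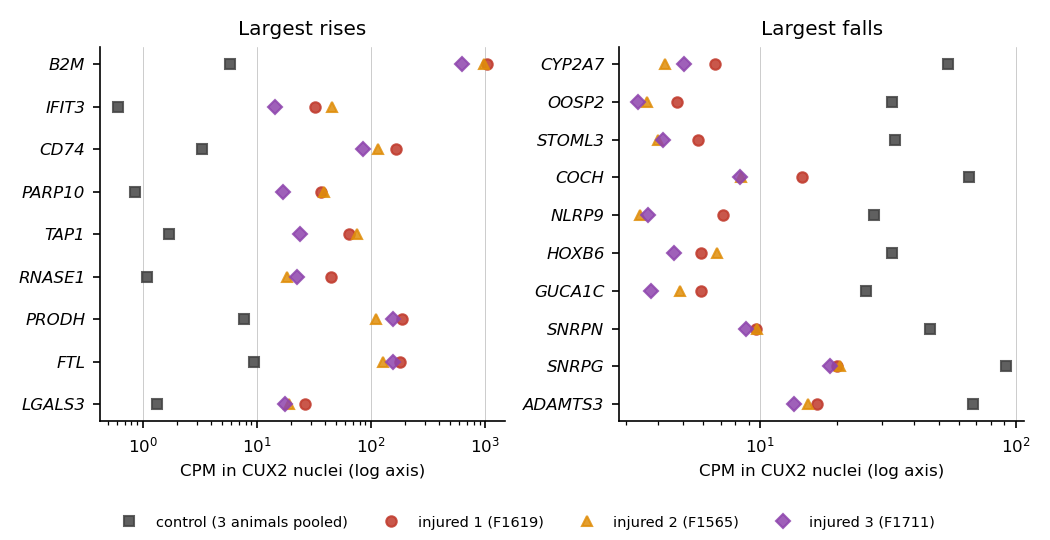
CPM in *CUX2* nuclei (log axes) of named genes among the 10 that rose most and the 10 that fell most; each point is 1 library, and the control library pools 3 animals. The genes were chosen for the same direction in 3 of 3 animals, so their control and injured points cannot overlap. Levels run from *B2M* (5.89 against 627 to 1040.4 CPM) to *ADAMTS3* (67.7 against 13.6 to 16.6 CPM).

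Several of these genes were higher still in other cell types of the injured tissue. Over all injured nuclei of a type and on totals alone, *B2M* stood at 9732 CPM in endothelial cells and 4337 CPM in microglia, against 859 CPM in *CUX2* nuclei as a pooled level. In the control library it was low in these types too, at 98.0 CPM in endothelial cells (20 UMIs), 8.03 CPM in microglia (1 UMI), 8.09 CPM in astrocytes and 7.83 CPM in oligodendrocytes against 6.24 CPM in *CUX2* nuclei, so higher injured levels of *B2M* were not limited to *CUX2* nuclei. *CD74* had 1 UMI in control microglia. *CD74*, the invariant chain of MHC class II and a microglial marker, stood at 1169 CPM in microglia, 114 CPM in *CUX2* nuclei and 114 CPM in inhibitory neurons, and *LGALS3* at 266 CPM in microglia and 19.8 CPM in *CUX2* nuclei. *RNASE1*, a secreted ribonuclease gene, stood at 338 CPM in oligodendrocytes, 321 CPM in microglia and 24.8 CPM in *CUX2* nuclei. Ferritin light chain, *FTL* (matched from ENSCJAG00000000250), stood at 1675 CPM in endothelial cells and 145 CPM in *CUX2* nuclei. *PRODH* (matched from ENSCJAG00000010707), a proline-degrading enzyme gene, lay between 139 and 271 CPM in every injured group of nuclei. The 4 microglial markers summed to 64.6 CPM in control *CUX2* nuclei and 228, 159 and 130 CPM in F1619, F1565 and F1711, and their part in these rises was not tested. Without *CD74* the list gave no call, since *P2RY12* (16.6 CPM in control, 12.5 to 15.8 CPM in injured animals), *GPR34* and *DOCK8* did not pass.

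Markers of other cell types behaved unevenly in *CUX2* nuclei. Astrocyte markers summed to 214 CPM in control and 183 to 244 CPM in injured animals, a sum made up mostly of *SLC1A2*. Of the 6, 0 were called and 4 were higher in all 3 animals, a share not set against that of all genes. But the median log2 fold change was 1.19, and 3 had an edgeR adjusted p under 0.05, each higher. These 3 were *SLC1A3* (log2 1.53), *AQP4* (1.95) and *GFAP*, which had 2 UMIs in control and 96 in the injured cohort, and the part of astrocyte RNA in the injury comparison was not tested. Oligodendrocyte markers summed to 173 CPM and 156 to 168 CPM, with 1 call of 5. Endothelial markers summed to 30.2 CPM and 39.5 to 51.5 CPM, inhibitory neuron markers to 13.1 CPM and 19.0 to 23.0 CPM, and oligodendrocyte precursor cell markers to 203 CPM and 128 to 160 CPM, with 0 calls in each list. The 3 endothelial markers had log2 fold changes from 0.16 to 1.28, and 1 had an edgeR adjusted p under 0.05. Of the markers in these 6 lists, 0 were without a UMI over the 4 libraries.

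Antiviral interferon-stimulated genes had the largest median log2 fold change of the lists examined, 3.79 over 32 genes against 0.01 over all genes. The median stayed at 3.79 with genes at 0 UMIs in a cohort set to a floor of 3 UMIs there. Only *IFI6*, *IFIT3* and *IFIT1* passed the limits, and 28 of 32 were higher in all 3 animals. This was so for 25 of 37 synaptic adhesion genes and 11 of 25 cell death genes, and the share over all genes is not given here. At the looser adjusted limit of 0.05 the number called higher was 18, with F1711 left out it was 23, with F1565 left out 17 and with F1619 left out 0. *IFI6*, a mitochondrial protein gene induced by type I interferon, stood at 13.7 CPM in control and 193, 207 and 92.9 CPM in F1619, F1565 and F1711 (log2 3.58 ± 0.519, SE, edgeR adjusted p = 0.00536). *IFIT1*, which encodes a sensor of viral RNA caps, had 1 UMI in control *CUX2* nuclei and 1903 in injured ones. That is a ratio of 533 after TMM scaling of the totals, with a 95% counting interval of 95.5 to 21060. *SAMD9L*, a translation inhibitor gene, had 0 control and 1728 injured UMIs. With the control sum set at a floor of 3 UMIs it was 161-fold higher, but its 95% counting interval starts at 131, so lower folds are not excluded.

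The 3 animals kept the same order across this list. In 31 of 31 antiviral genes with more than 3 injured UMIs, F1565 was highest and F1711 lowest, an order found in 17.3% of 14080 genes tested. *MX1*, a dynamin-like antiviral GTPase gene, shows the size of the gap, with 5.03 CPM in control and 236, 453 and 88.4 CPM in F1619, F1565 and F1711. Its log2 fold change was 5.69 ± 1.10 (SE) and its edgeR adjusted p of 0.0138 missed the limit. MHC class I genes followed the same order in 9 of 15 cases. F1565 was also highest for 18 of 21 immediate early genes, against 4704 of the 14080 genes. F1619 was highest for 39 of 52 ribosomal protein genes and for all 4 microglial markers, against 4674 of the 14080.

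**Figure D4:**
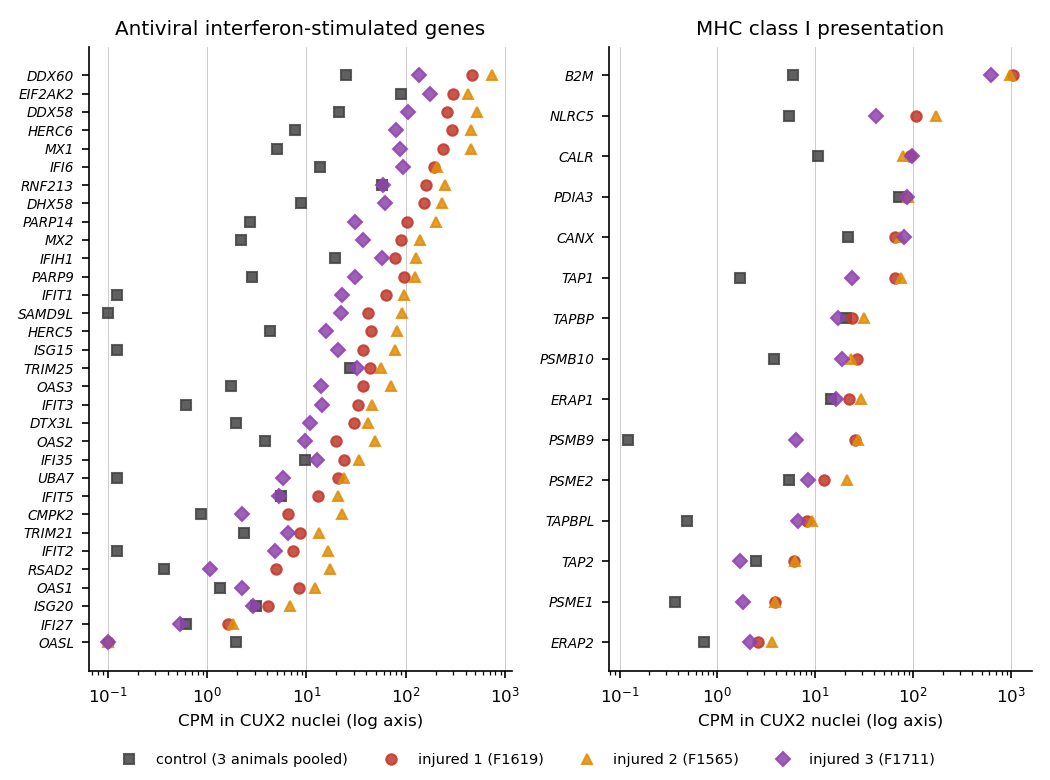
CPM in *CUX2* nuclei (log axes) of every tested gene of the antiviral and the MHC class I list, 1 point per library; values at or under 0.1 CPM are drawn at 0.1. In the antiviral panel F1565 lies right of F1619 and F1619 right of F1711 for all genes but *OASL*, which had 0 injured UMIs, whereas *B2M* is highest in F1619.

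In the MHC class I list 5 of 15 genes rose and 0 fell, against 2.41% of all genes called higher, with a median log2 fold change of 2.58. Besides *B2M* and *TAP1* these were the peptide-loading chaperones *CALR* (3.07 ± 0.210, SE) and *CANX* (1.76) and the immunoproteasome subunit *PSMB10* (2.58). *CALR* was at 10.6 CPM in control and at 92.6, 77.9 and 96.1 CPM in F1619, F1565 and F1711, so it was not lowest in F1711. In the interferon signalling list, *IFNGR2*, which encodes a chain of the interferon gamma receptor, was the only call lower of 14 genes (37.3 CPM in control, 17.6, 18.1 and 18.5 CPM in injured animals, log2 -1.04).

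A pair of further endoplasmic reticulum chaperones rose. *HSPA5*, which encodes the lumenal chaperone BiP, stood at 10.3 CPM in control and 73.5, 76.3 and 68.8 CPM in F1619, F1565 and F1711 (log2 2.82 ± 0.180, SE, edgeR adjusted p = 0.000533). *HSP90B1*, the lumenal HSP90 paralog, stood at 30.9 CPM against 96.2, 115 and 129 CPM (log2 1.88). These were the 2 calls among 24 genes of the unfolded protein and integrated stress response, whose median was 0.35. Over all genes 2.41% were called higher and 1.28% lower. In the cytosol *HSPH1* (log2 1.20) and *DNAJB2* (1.11) were the 2 calls among 22 chaperone genes, and in the hypoxia and glycolysis list the aldolases *ALDOA* (1.71) and *ALDOC* (1.57) were the 2 calls among 29. Of 21 immediate early genes only *IER5* (2.62) was called, at 3.07 CPM in control and 18.7 to 19.3 CPM in injured animals. None of 25 cell death genes was called by edgeR at these limits, although 7 had an unadjusted p under 0.05.

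Cytosolic ribosomal protein genes were the list with the most calls, 20 higher and 0 lower of 53, with a median log2 fold change of 1.21. Of all genes 2.41% were called higher. *RPS28* stood at 9.82 CPM in control and 95.8, 85.2 and 81.5 CPM in F1619, F1565 and F1711 (log2 3.15 ± 0.194, SE, edgeR adjusted p = 0.000533). *RPL27* (3.38) rose likewise, and *RPL27A* had 3 control and 1127 injured UMIs, a ratio of 105 with a counting interval of 35.9 to 511. Respiratory chain subunits gave 7 higher and 0 lower of 47, with the cytochrome c1 gene *CYC1* at 3.93 CPM in control and 22.6 to 28.8 CPM in injured animals (log2 2.74). After thinning to 2000 UMIs a nucleus these counts were 3 and 0, and with F1619 left out 18 and 3. Ribosomal protein genes have many near-identical copies in primate genomes, so their assignment is uncertain. In the class comparison neither list had a call.

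In the list of neuropeptides, granule proteins, trophic factors and their receptors, 4 of 25 genes rose and 0 fell. The shares over all genes were 2.41% higher and 1.28% lower. *CHGA*, the granule protein chromogranin A, stood at 45.3 CPM in control and 261, 248 and 268 CPM in F1619, F1565 and F1711 (log2 2.51 ± 0.145, SE, edgeR adjusted p = 0.000533). *CCK*, the neuropeptide cholecystokinin, stood at 22.9 CPM against 147, 175 and 224 CPM (log2 2.99). *CHGB* (1.55) and *SCG2* (2.47), a pair of further granins, completed the group. Pooled over injured nuclei, *CCK* was at 180 CPM in *CUX2* nuclei, 99.6 CPM in endothelial cells (14.7 CPM in control, from 3 UMIs), 48.8 CPM in inhibitory neurons and 23.3 CPM in microglia. Of 33 genes of synaptic vesicle release, *SYT4* (2.30), a synaptotagmin of dense-core vesicles, and *RAB3A* (1.76), the vesicle GTPase, were called.

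Of 14 genes of inhibitory GABA receptors 4 were called, all higher, against 2.41% of all genes called higher. *GABRA2*, a GABA-A receptor subunit, stood at 119 CPM in control and 231, 225 and 243 CPM in F1619, F1565 and F1711 (log2 0.97 ± 0.128, SE, edgeR adjusted p = 0.00408), and the GABA-B subunit *GABBR1* rose by 0.78 on the log2 scale. The list had 1 call with F1619 left out.

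Single genes of the 3 glutamate receptor lists were called, where 2.41% of all genes were called higher and 1.28% lower. *GRIA2*, the AMPA subunit that makes receptors impermeable to calcium, stood at 1006 CPM in control and 1764, 1864 and 1905 CPM in F1619, F1565 and F1711 (log2 0.87 ± 0.139, SE), the only call of 11 AMPA receptor genes. *GRIN1*, the obligatory NMDA receptor subunit, fell from 34.6 CPM to 15.0, 15.5 and 15.1 CPM (log2 -1.19 ± 0.167, SE, edgeR adjusted p = 0.00493), the only call of 6. *GRIN2A* stood at 649 CPM in control and 714 to 825 CPM in injured animals and was not called. Among 15 kainate and metabotropic receptors *GRM7* (0.86), a presynaptic receptor that dampens release, was the only call.

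Channels of the action potential were called in 4 of 22 sodium and calcium channel genes, all higher, against 2.41% of all genes called higher. *SCN2A*, a main axonal sodium channel of excitatory neurons, stood at 331 CPM in control and 641, 701 and 636 CPM in F1619, F1565 and F1711 (log2 0.99 ± 0.136, SE). *SCN3A* (0.999) and the calcium channel *CACNA1E* (0.85) were also called, and leaving out F1619 left 1 call in the list. None of 28 voltage-gated potassium channel genes passed in edgeR, with 9 at an unadjusted p under 0.05, and *KCNMB4* (0.81), a subunit of calcium-gated potassium channels, was the only call of 18 other potassium and HCN channel genes. *CALM2* (0.75), 1 of the calmodulin genes, was the only call among 17 genes of calcium extrusion and stores.

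Genes of growth, adhesion and axon guidance gave scattered calls, where 2.41% of all genes were called higher and 1.28% lower. *MARCKS*, an actin-binding membrane protein of growth cones, stood at 7.61 CPM in control and 33.9, 38.1 and 33.8 CPM in F1619, F1565 and F1711 (log2 2.21 ± 0.207, SE), and *KLF7* (1.07) and *TUBA1A* (1.24) were the other calls of 24. Leaving out F1619 left 1 call of the 3. *RTN4*, which encodes the neurite outgrowth inhibitor Nogo, stood at 252 CPM against 528, 613 and 575 CPM (log2 1.18 ± 0.145, SE, edgeR adjusted p = 0.00302), and its relative *RTN2* fell by 0.80 on the log2 scale. *CADM1*, *NRXN3*, *SLITRK4* and *NLGN2* were the 4 calls of 37 adhesion genes, all higher. *EPHB6* (1.85) was the only call of 47 guidance genes and *HOMER2* (-0.86), a scaffold, the only call of 30 postsynaptic density genes. The guidance and postsynaptic density counts lay near the share of all genes called.

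**Figure D5:**
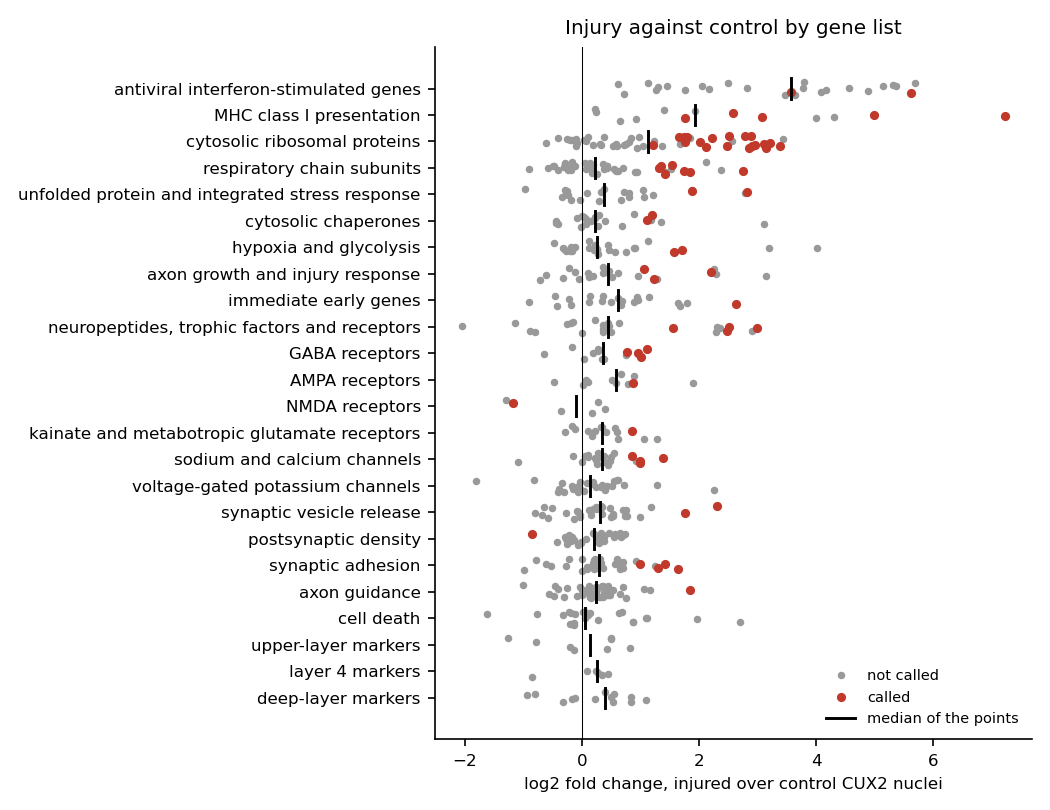
Log2 fold change of injured over control *CUX2* nuclei for each gene with more than 3 UMIs in each cohort (points, red where called) and the median of the points (bar), by gene list. Not drawn are the lists of interferon signalling, Nogo, other potassium and HCN channels, and calcium extrusion and stores. The list of genes common to excitatory neurons and the marker lists of other cell types are also left out. In the lists drawn, called genes lie right of 0 except *GRIN1* and *HOMER2*, and the antiviral list has its median farthest right.

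No upper-layer, layer 4 or deep-layer marker passed between injured and control *CUX2* nuclei in edgeR, with 3, 2 and 5 genes at an unadjusted p under 0.05. *CUX1* stood at 2630 CPM in control and 2397, 2271 and 2489 CPM in F1619, F1565 and F1711 (log2 -0.14 ± 0.137, SE). *RORB* stood at 651 CPM and 895, 1023 and 750 CPM (log2 0.45 ± 0.187, SE). *CBLN2*, a secreted synapse organiser gene, had the largest fitted change among upper-layer markers (-1.26, edgeR adjusted p = 0.0359). Of 11 genes common to excitatory neurons, *SLC17A6*, the vesicular glutamate transporter VGLUT2, was the only call, at 31.7 CPM in control and 74.3, 61.9 and 61.7 CPM (log2 1.055).

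The 10 largest falls stood under 100 CPM in the control library. *OOSP2*, an oocyte-secreted protein gene, stood at 32.8 CPM in control and 4.73, 3.6 and 3.31 CPM in F1619, F1565 and F1711, and *STOML3*, a stomatin of touch-sensing neurons, at 33.6 CPM against 5.70, 3.97 and 4.17 CPM. *CYP2A7* (matched from ENSCJAG00000036060) fell most (log2 -3.39 ± 0.231, SE), and *COCH*, *NLRP9*, *HOXB6*, *GUCA1C*, *SNRPN*, *SNRPG* and *ADAMTS3* fell by between 2.16 and 2.69. *SNRPG*, a core subunit of spliceosomal particles, stood at 91.4 CPM against 20.0, 20.4 and 18.8 CPM. Lower injured levels were also seen outside *CUX2* nuclei, with *STOML3* in *FOXP2* nuclei at 31.6 CPM in control and 1.94, 4.21 and 5.50 CPM in F1619, F1565 and F1711. *SNRPG* there stood at 92.6 CPM against 21.8, 15.6 and 17.2 CPM. Lower levels were not limited to excitatory neurons. On totals alone, *CYP2A7* stood at 75.1 CPM in control and 11.2 CPM in injured astrocytes. In oligodendrocytes it stood at 58.7 against 3.90 CPM, and in endothelial cells at 68.6 (14 UMIs) against 3.79 CPM. *COCH* in inhibitory neurons stood at 87.5 against 14.4 CPM. *STOML3* was low in control astrocytes (5.78 CPM, 5 UMIs), against 3.48 CPM in injured ones.

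The injury response of *CUX2* nuclei was then set against that of *FOXP2* nuclei in a fit of class by cohort over 8 sums, with library as a block. No gene passed the limits of edgeR, 0 higher and 0 lower of 13841 (0%), while 801 had an unadjusted p under 0.05. DESeq2 also called 0, with 97 at that unadjusted p. Leaving out F1619, F1565 and F1711 gave 3, 93 and 16 calls. *CDH13*, a cadherin gene named after its value was seen, was the only gene with an adjusted p under 0.05 (0.0385), with an extra log2 change of 1.21 ± 0.160 (SE) in *CUX2* nuclei. It stood at 281 CPM in control and 215, 303 and 306 CPM in F1619, F1565 and F1711 in *CUX2* nuclei, and at 112 CPM against 43.6, 46.9 and 52.8 CPM in *FOXP2* nuclei.

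*B2M* stood at 5.35 CPM in control and 756, 782 and 526 CPM in *FOXP2* nuclei of F1619, F1565 and F1711, and the difference of the log2 changes was 0.19 ± 0.403 (SE). For *IFI6* this difference was 0.25 ± 0.311. Over the 4 libraries *CCK* was higher in *CUX2* than in *FOXP2* nuclei (log2 0.94), but in control the classes stood close, at 23.2 and 22.5 CPM. Its rise in *CUX2* nuclei exceeded that in *FOXP2* nuclei in 3 of 3 animals by 0.98 ± 0.244 (SE), with an edgeR adjusted p of 0.639. *CCK* in *FOXP2* nuclei was at 22.5 CPM in control and 66.8, 83.3 and 119 CPM in injured animals.

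*CUX2* nuclei with and without a *RORB* UMI were fitted apart, with *RORB* left out. Nuclei with a *RORB* UMI gave 443 calls and those without gave 573, of which 398 were higher. *B2M* rose by 7.28 and 7.04, *CHGA* by 2.50 and 2.46 and *RTN4* by 1.15 and 1.34 on the log2 scale in nuclei with and without *RORB*. The antiviral list had 2 calls in nuclei with *RORB* and 16 in those without, but its fold changes did not follow these counts. In nuclei with and without *RORB*, *IFIT3* rose by 6.09 and 4.24, *IFI6* by 3.64 and 3.35 and *IFIT1* by 8.43 and 9.88. The difference between these nuclei was not tested.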

How the data were processed

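The deposited tables hold raw UMI counts per gene and nucleus. Per the labels and the study's methods, the authors made these counts with Cell Ranger 3.1.0 on the calJac3 marmoset genome, removed doublets (Scrublet for injured nuclei, a Seurat filter on genes for control), clustered each cohort apart with Seurat and named the clusters by markers. Sequence of the genome was not used here. No doublet caller was run.

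Counts were summed per library over *CUX2* and over *FOXP2* nuclei. Genes listed in both tables (16383) that passed filterByExpr were tested with edgeR 4.0.16 (R 4.3.3), TMM scaling, glmQLFit and glmQLFTest. Of 9819 identifiers without a symbol, 1173 were matched to one from a gene name table. DESeq2 1.42.0 was an alternative. Intervals are Clopper-Pearson at 95% (scipy 1.17.1) and, like the floor of 3 UMIs, cover counting error only. Fits were tested on simulated data.

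The nuclei and the gene lists were chosen with earlier results of these data known. Named genes were the 10 largest called rises and 10 largest falls with more than 3 UMIs in each cohort, the same direction in 3 of 3 animals and a symbol, up to 4 members of each list with the smallest p, every called member where 6 or fewer, the 5 largest class differences each way, and all layer markers. *MX1* and *SAMD9L* under injury lie outside this rule. So do *ATP2B4*, *RYR2*, *RYR3*, *GRIK3*, *KCNH8*, *KCNIP2*, *NRP2* and *SEMA3A* between classes. These genes were named with their values known. Single nuclei were not treated as replicates. Replicates 1, 2 and 3 of the injured group are F1619, F1565 and F1711. Some genes that this rule names are not reported here.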

Additional observations from a re-analysis of the deposited data

Results flagged for a closer look

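Genes that the control table does not list were kept out of the comparisons. Of these, 3327 had a UMI in injured *CUX2* nuclei, together 0.214% of the UMIs there, and 17 were found in 10% or more of the nuclei. Those among the 17 that carry a name were *CCDC85B* (23.7% of injured *CUX2* nuclei with a UMI), *GBP1* (14.4%), *C1QC* (13.5%), Metazoa-SRP.871 (13.5%), Metazoa-SRP.889 (12%) and *C1QB* (11.6%), and they drew attention because the comparisons do not use them. Being absent from the control table is not a count of 0, so no limit or fold follows for control. *GBP1*, an interferon-induced GTPase gene, was at 23.1, 38.2 and 13.4 CPM in F1619, F1565 and F1711, with F1565 highest and F1711 lowest. *C1QC* and *C1QB*, complement genes of microglia, were at 39.1, 23.6 and 16.99 CPM and at 31.1, 19.4 and 15.7 CPM in the same animals. *CCDC85B* was at 45.2, 47.4 and 46.1 CPM. Over injured microglia *C1QC* stood at 390 CPM, *C1QB* at 421 CPM, *GBP1* at 254 CPM and *CCDC85B* at 48.5 CPM, and the part of microglial RNA in the *CUX2* nuclei was not tested.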

How the results depend on the processing

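Every called gene of the injury comparison kept its direction under each alternative. Against 528 calls as reported, the count was 1778 at an adjusted limit of 0.05, 243 after thinning to 2000 UMIs (199 of them shared) and 876 by DESeq2, and it ranged from 266 to 1175 when an injured animal was left out. For the difference between classes, against 0, it was 2 without a filter, 2 with no depth minimum, 1 at the limit of 0.05, and 3 to 93 with an animal left out. With no replicate block it stayed 0. For *CUX2* against *FOXP2* nuclei, against 1282, it was 624 after thinning and 820 with no replicate block. The injured mean share of *CUX2* nuclei exceeded control by 0.64 percentage points as reported, by 9.55 with 2 or more *CUX2* UMIs and by 7.87 without the *FOXP2* condition. Of 1279 called genes tested between classes after thinning, 1276 kept their direction. Among the named layer markers, signs reversed for these, none called in the comparison concerned: *KCNH5* under injury (-0.21 without *RORB* nuclei) and, between classes, *COL22A1* (0.13, thinned), *FREM3* (-0.011 at 4000 UMIs) and *SULF1* (0.006 with no depth minimum). With a library left out, *CBLN2* ranged from -0.278 to 0.006, *FREM3* from -0.048 to 0.246, *IL1RAPL2* from -0.297 to 0.054 and *SULF1* from -0.157 to 0.041. The causes were not tested. No paired analysis was possible for the injury effect because the cohorts are different animals and the control is 1 pooled library.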
